A study of Mus musculus with 2 samples.

Results

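The 35 genes described here encode the folding and quality-control machinery of the endoplasmic reticulum: chaperones and their cofactors, disulphide isomerases, translocon subunits, a vesicle coat subunit, the degradation machinery, and the sensors of misfolded protein. They were taken as a list of symbols, chosen with earlier results of these data known. The symbols were matched to the Ensembl gene IDs of 1 table of 52636 IDs, and all 35 were found. The table holds 1 RNA-seq library of each of 2 genotypes, Cd248 null and Cd248 heterozygote. Cd248 encodes endosialin, a surface lectin of pericytes and stromal fibroblasts. Both libraries came from cells described as primary pericytes, the mural cells of small vessels. The cells were derived from tumours of C57BL/6 mice, sorted by flow cytometry, kept on gelatin-coated plates and used at passages 10 to 12. The heterozygote cells, which served as the reference, themselves carry 1 disrupted copy of Cd248. The tumour model, the sorting markers, the number of mice behind each culture and the extent of the null allele are not stated in the sources used here. Where a pair of values is given below, the null library comes first and the heterozygote library second.

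Each genotype has a single library, so the spread between cultures is unknown: the differences below could not be checked against replicates, and none was tested. Values are FPKM, fragments per unit of transcript length and of library total, as the authors deposited them. A gene is called higher or lower where its value in null cells was at least 2-fold above or below that in heterozygote cells on the log2(FPKM + 1) scale. Read from the steps of low values, 1 FPKM on 1 kilobase stood for 19.79 and 23.98 reads. Cd248 itself stood at 0.0592 and 20.98 FPKM, as the genotypes assigned to the columns would have it. Marker genes of other cell types differed in level between the libraries. Of 11 epithelial and mesothelial markers, 8 reached an FPKM of 1 in either library, and all 8 were lower. The list summed to 18.03 and 1194 FPKM, led by Upk3b (0.430 and 330.2), Msln (2.10 and 234) and Krt19 (14.4 and 217), while Epcam was listed at 0 in both. Of 11 pericyte markers 7 reached an FPKM of 1. The list summed to 799.7 and 1396 FPKM, nearly all of it Acta2 (726 and 1367). Pdgfrb (57.3 and 8.25) was the 1 pericyte marker called higher, none was lower, and 4 of the 7 ratios were below 0. Rgs5 stayed below 1 in both libraries, and Abcc9 was listed at 0. Of 8 fibroblast markers 7 reached an FPKM of 1, with sums of 5541 and 3403 carried by Col1a1 (2779 and 2024) and Col1a2 (1832 and 853). Of these markers Col1a2 and Thy1 (884 and 359) were higher, whereas Dcn (20.8 and 117), Pdgfra (21.6 and 46.2) and Fap (0 and 1.38) were lower. Of 8 myeloid markers 4 reached an FPKM of 1, with sums of 24.5 and 16.4, while Adgre1 and Itgam were listed at 0 in both. Of those 4, Lyz2 (4.26 and 0.507) and Csf1r (2.10 and 0.195) were higher, and the other 2 lay within 2-fold. None of 8 endothelial markers and none of 10 B and plasma cell markers reached an FPKM of 1 in either library. The part of these marker differences in the results below was not tested, and in bulk RNA a change in the cell mixture cannot be told apart from a change in RNA per cell.

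The endoplasmic reticulum is where secreted and membrane proteins enter the secretory pathway, are glycosylated, form disulphide bonds and fold. When unfolded protein builds up in its lumen, the membrane sensors IRE1 (Ern1), ATF6 and PERK start the unfolded protein response. IRE1 splices the mRNA of Xbp1 into the form that encodes an active transcription factor, and ATF6 is cut in the Golgi to release one. Both factors act on genes for chaperones and for the degradation of misfolded proteins. Pericytes and other mesenchymal cells secrete much collagen and other matrix protein, and so rely on this machinery.

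The chaperones of the lumen were more abundant in the Cd248 null library, whereas the channel that feeds proteins into it was nearly even between the libraries. Of the 35 genes, 16 (45.7%) were higher, none was lower, and 19 lay within 2-fold. Among all 12773 genes that reached an FPKM of 1 in either library, 6.84% were higher and 6.88% lower. Most of the 35 genes are abundant, and among the 7612 genes whose mean FPKM was 10 or more the shares were 5.14% and 3.70%. The 35 genes were chosen with earlier results of these data known, so these shares describe the list and do not test it. The median log2 ratio of null to heterozygote was 0.76 over the 35 genes and 0.03 over all compared genes, and 31 of the 35 ratios were above 0, against 51.9% of all compared genes. Of the 35 genes, 7 share exon bases with another gene of at least 1 FPKM (Hsp90b1, Manf, Pdia3, Txndc5, Txndc11, Syvn1 and Derl2), and since the strand setting of the counting is not stated, reads there cannot be told apart. For Derl2 the neighbour, Mis12, was the more abundant gene, at 58.6 and 52.3 FPKM. Together the 35 genes made up 2.14% and 0.851% of the summed FPKM.

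**Figure D1:**
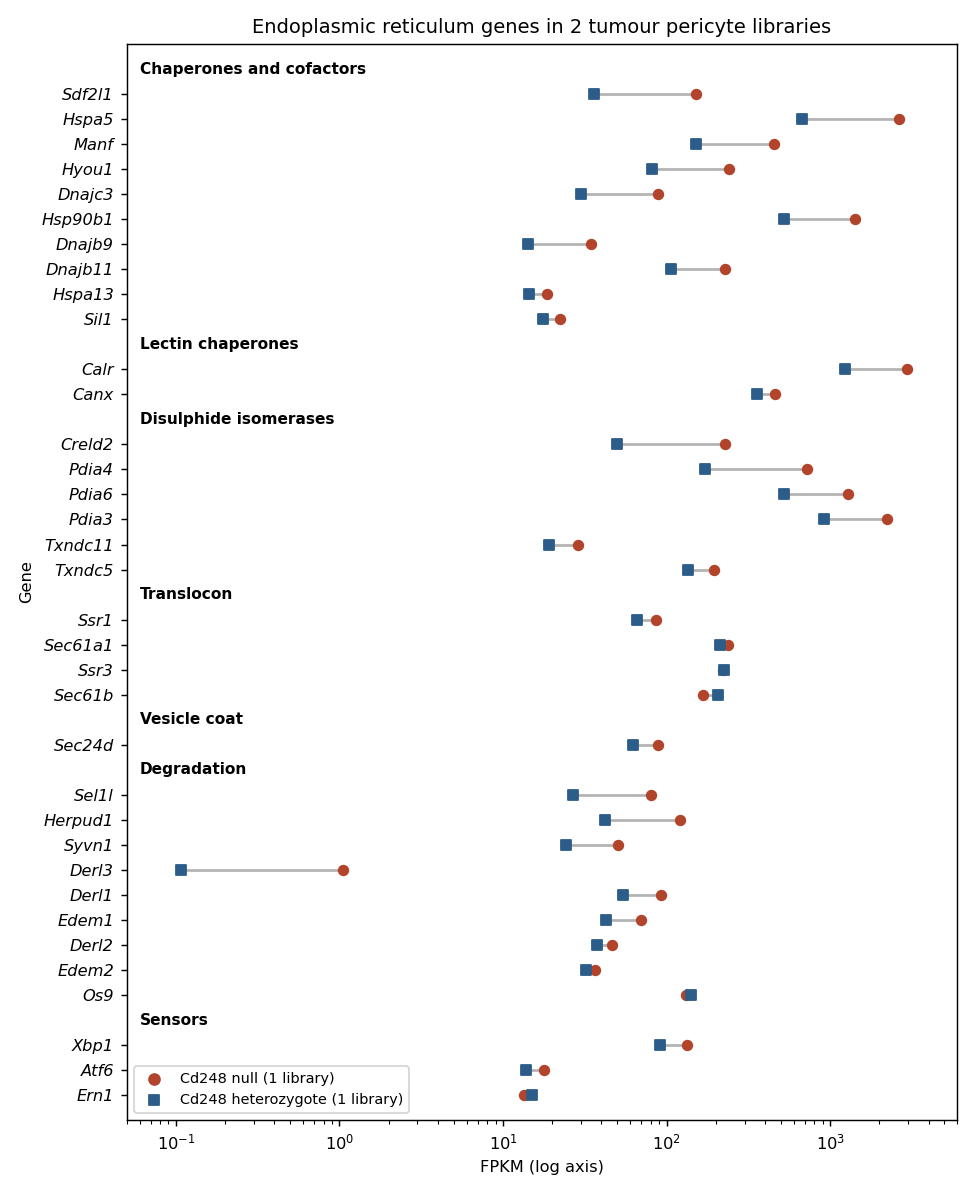
FPKM (log axis) of the 35 genes in the Cd248 null library (circles) and the Cd248 heterozygote library (squares), grouped by role, with 1 library per genotype and a line joining the values of each gene. The gaps are wide for most chaperones and isomerases, from Creld2 at 227 and 49.8 to Dnajb11 at 226 and 107, and nearly closed in the translocon group, where Ssr3 stood at 221 and 226.

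The chaperone group was led by Hspa5, which encodes BiP, the HSP70 chaperone of the lumen that binds unfolded chains and holds the sensors inactive. Its level was 2650 and 669 FPKM, a 3.96-fold difference with a 95% counting interval of 3.925 to 3.998. It ranked 17th among all genes by FPKM in null cells and 158th in heterozygote cells. Here and below, such intervals are exact binomial intervals on the read numbers that these depths and the longest annotated coding transcript would give, and they cover counting error only. The 250 bases before the annotated start of Hspa5 (chr2:34771840-34772089, GRCm38.p6, plus strand, from RefSeq) are shown because they hold an ER stress response element, the sequence through which ATF6 acts on such genes. Its fixed letters are in capitals.
Hspa5: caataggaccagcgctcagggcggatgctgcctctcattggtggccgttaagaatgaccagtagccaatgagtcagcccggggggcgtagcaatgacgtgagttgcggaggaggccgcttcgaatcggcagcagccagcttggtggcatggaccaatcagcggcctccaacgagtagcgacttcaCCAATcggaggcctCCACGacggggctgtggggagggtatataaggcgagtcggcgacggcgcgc

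Of the 10 chaperones and cofactors, 8 were higher and all 10 ratios were above 0, with a median log2 ratio of 1.49. Hsp90b1, which encodes GRP94, the HSP90 of the lumen, stood at 1422 and 520 FPKM, a 2.73-fold difference. The nucleotide exchange factors of BiP differed among themselves. Hyou1, encoding the large HSP70 relative GRP170, was 2.96-fold higher at 242 against 81.8 FPKM, while Sil1 stood at 22.2 and 17.7, a ratio of 1.25 (interval 1.13 to 1.39). The 3 listed J-domain proteins, which direct BiP to its clients, were higher as well. Dnajc3, also known as p58IPK, stood at 88.5 and 29.9 FPKM (2.96-fold), Dnajb9, or ERdj4, at 34.7 and 14.1 (2.46-fold), and Dnajb11, or ERdj3, at 226 and 107 (2.12-fold). Other J-domain genes of the reticulum, named after their values were seen, lay within 2-fold: Dnajc10 at a ratio of 1.56, Dnajc1 at 1.53, Dnajc25 at 1.65 and Sec63 at 1.22. Sdf2l1, whose product works together with ERdj3, had the highest ratio of this group, at 151 and 36.2 FPKM or 4.17-fold (interval 3.88 to 4.48). Manf, which encodes a small BiP-binding protein of the lumen that can be secreted, was 2.99-fold higher, at 451 against 151. The HSP70 relative Hspa13 was close to even, at 18.5 and 14.5.

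The calnexin cycle, in which lectin chaperones hold newly made glycoproteins, was split between its soluble and its membrane-bound chaperone. Calr, encoding the soluble calreticulin, stood at 2938 and 1231 FPKM, a 2.39-fold difference (interval 2.36 to 2.41). Canx, encoding the membrane protein calnexin, stood at 459 and 355, a ratio of 1.29 (interval 1.27 to 1.31). On this per-length scale calreticulin RNA was 6.40 times the calnexin RNA in null cells and 3.47 times in heterozygote cells. Pdia3, encoding the isomerase ERp57 that pairs with both lectins, was 2.43-fold higher, at 2228 against 915. It belonged to the 6 disulphide isomerases and related genes, of which 4 were higher, with a median log2 ratio of 1.29. Creld2, a stress-responsive gene for an EGF-repeat protein with isomerase activity, had the highest log2(FPKM + 1) ratio of the 35 genes, 2.17, at 227 and 49.8 FPKM or 4.56-fold (interval 4.31 to 4.82). Without a pseudocount, only the barely detected Derl3 had a higher ratio. Pdia4, which encodes ERp72, was 4.19-fold higher at 717 against 171, and Pdia6, encoding an isomerase that regulates IRE1, 2.45-fold higher at 1282 against 522. The thioredoxin-domain genes Txndc5 (195 and 135 FPKM) and Txndc11 (28.7 and 19.2) had ratios of 1.45 and 1.49, short of the 2-fold mark.

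The 4 translocon genes were nearly even between the libraries: none passed 2-fold, their median log2 ratio was 0.07, and their summed FPKM was 714 and 709. Sec61a1, encoding the pore of the channel, stood at 239 and 212 FPKM. Its small partner Sec61b was slightly less abundant in null cells, at 167 against 205, a ratio of 0.816 (interval 0.769 to 0.866). The translocon-associated protein genes Ssr1 and Ssr3 stood at 85.9 and 66.2 FPKM and at 221 and 226, and Ssr3 was the only gene of the 35 whose counting interval, 0.959 to 1.004, included an even ratio. The sign of the small Ssr3 difference, a log2 ratio of -0.03, turned with equal sums (0.06) and with chromosome centring (0.09). Sec24d, a cargo-binding subunit of the COPII coat on vesicles leaving the reticulum, stood at 88.4 and 62.4 FPKM, a ratio of 1.42.

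The degradation machinery draws misfolded proteins back to the cytosol for the proteasome, and its genes differed among themselves. Of the 9 genes, 3 were higher and the other 6 lay within 2-fold. The median log2 ratio was 0.76. Sel1l, the adaptor of the HRD1 ubiquitin ligase, stood at 80.5 and 26.7 FPKM, a 3.01-fold difference. Herpud1, whose product HERP assembles with that ligase, was 2.87-fold higher at 121 against 42.3. Syvn1, encoding HRD1 itself, was at the 2-fold mark, with 50.2 and 24.3 FPKM, a ratio of 2.06 and an interval of 1.95 to 2.18. It fell below the mark with a pseudocount of 5 (log2 ratio 0.91) and when centred on the median of all genes (0.99).

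The derlins, membrane proteins of the export channel, and the lectins that hand over glycoproteins lay within 2-fold on the log2(FPKM + 1) scale. Derl1 stood at 92.1 and 54.2 FPKM (ratio 1.70) and Derl2 at 46.5 and 37.5 (1.24). Derl3 was barely detected, at 1.05 and 0.108 FPKM, so it entered the comparison through the null library alone. These values correspond to about 27.4 and 3.43 reads, and the ratio without a pseudocount was 9.70 with an interval of 3.36 to 56.2, so its size is poorly fixed. On the log2(FPKM + 1) scale its ratio was 0.89, and it passed 2-fold with a pseudocount of 0.1 (2.46) and when centred by chromosome (1.01). Edem1, encoding a mannosidase-like protein, stood at 69.8 and 42.8 FPKM (ratio 1.63) and its relative Edem2 at 36.3 and 32.2 (1.13). Os9, a lectin that brings glycoproteins to the ligase, was slightly less abundant in null cells, at 132 against 142 FPKM (ratio 0.930, interval 0.901 to 0.960), a direction that turned when each ratio was centred on its chromosome's median (log2 ratio 0.02).

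None of the 3 sensor genes passed 2-fold. Xbp1 stood at 134 and 90.8 FPKM, a ratio of 1.48 (interval 1.42 to 1.53). Atf6 stood at 17.7 and 13.8 (1.28) and Ern1 at 13.4 and 15.0 (0.889). When ratios were centred on the chromosome median, the log2 ratio of Xbp1 went from 0.56 to 0.82, and those of Atf6 and Ern1 changed sign, to -0.07 and 0.11. The median log2 ratio was -0.27 over chromosome 11, which holds Xbp1 and Ern1, and 0.41 over chromosome 1, which holds Atf6. Canx and Derl2 also lie on chromosome 11. Gene-level FPKM does not separate spliced from unspliced Xbp1 mRNA and says nothing of the cleavage of ATF6, so the activity of either arm was not measured.

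**Figure D2:**
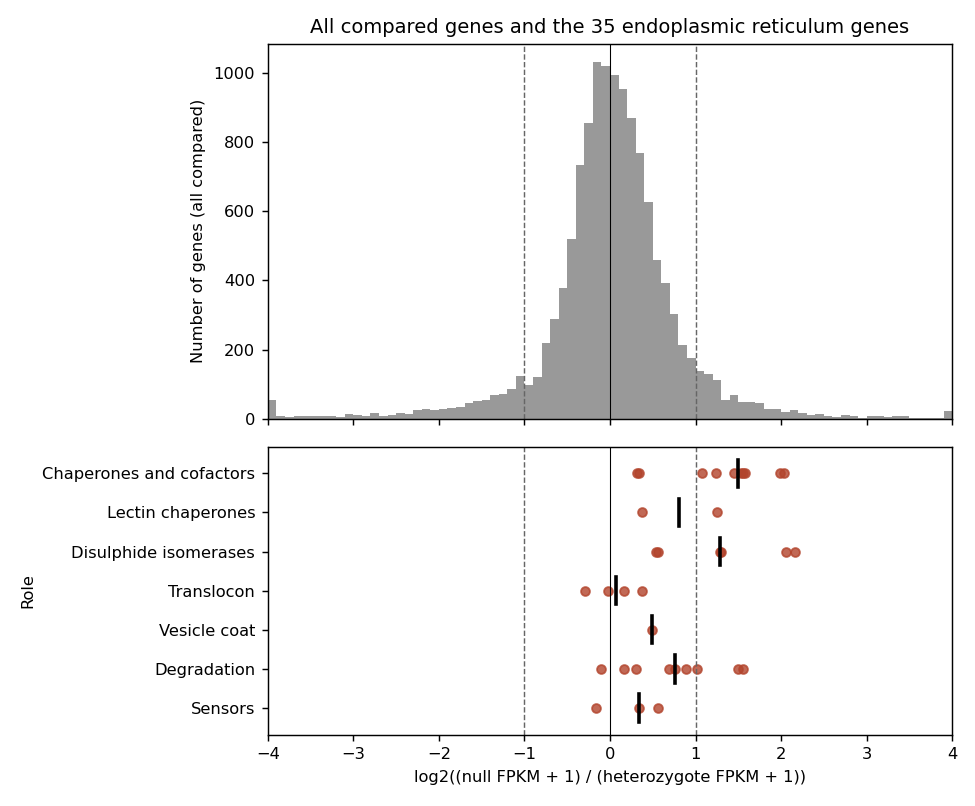
Upper panel, number of genes by log2((null FPKM + 1)/(heterozygote FPKM + 1)) in bins of 0.1 over all 12773 compared genes, with values beyond 4 placed in the end bins. Lower panel, each of the 35 genes (points) by role with the role's median (bars) and dashed lines at 2-fold. The chaperone median of 1.49 and the isomerase median of 1.29 lie beyond the 2-fold line, and the translocon median of 0.07 lies near the centre of all genes.

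The elements of the unfolded protein response were then looked for in the promoter windows of the 35 genes, from 250 bases before to 50 bases after the annotated start (RefSeq, GRCm38.p6). Of the 35 genes, 28 matched the promoter table by symbol. The 7 without an entry were Atf6, Derl1, Hspa13, Hyou1, Manf, Sec61a1 and Sil1. The ER stress response element was searched as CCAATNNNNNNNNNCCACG on both strands, N being any base. It was found in 9 of the 28 (32.1%), compared with 37 of 27025 genes in the table (0.137%). The 9 genes and their elements, with 10 bases on each side, are shown so that the shared letters and the variable spacer can be compared. Each is written along its gene's strand, and capitals mark the fixed letters, which read CGTGG before ATTGG where the element lies on the opposite strand.
Hspa5, chr2:34772015-34772053, plus strand: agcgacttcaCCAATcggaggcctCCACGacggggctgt
Hsp90b1 upstream element, chr10:86705628-86705666, minus strand: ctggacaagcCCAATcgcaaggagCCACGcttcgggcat
Hsp90b1 downstream element, chr10:86705523-86705561, minus strand: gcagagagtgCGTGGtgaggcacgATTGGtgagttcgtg
Dnajc3, chr14:118937817-118937855, plus strand: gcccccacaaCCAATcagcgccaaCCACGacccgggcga
Calr, chr8:84847065-84847103, minus strand: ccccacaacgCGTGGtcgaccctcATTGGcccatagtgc
Canx, chr11:50325790-50325828, minus strand: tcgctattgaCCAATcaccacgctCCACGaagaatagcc
Pdia6, chr12:17266481-17266519, plus strand: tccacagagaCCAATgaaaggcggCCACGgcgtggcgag
Creld2, chr15:88819510-88819548, plus strand: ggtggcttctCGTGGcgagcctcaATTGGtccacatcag
Syvn1, chr19:6046522-6046560, plus strand: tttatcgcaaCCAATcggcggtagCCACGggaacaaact
Derl3, chr10:75893232-75893270, plus strand: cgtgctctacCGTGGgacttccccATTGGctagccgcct

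Of these 9 genes, 7 were higher, with a median log2 ratio of 1.29. The exceptions were Canx at 0.37 and the barely detected Derl3 at 0.89. Of the 19 genes whose window did not hold these letters, 7 were also higher, among them Pdia4, Sdf2l1 and Sel1l, and their median was 0.56. With any base allowed at the last position, a variant chosen after the data were seen, 13 of the 28 held the element and 10 of those were higher, Pdia4, Pdia3 and Herpud1 now among them. A match is a description of the letters in the window, and no binding was measured. The members with and without the element also differ in role, since none of the 3 translocon genes in the table held it.

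Over the whole table the exact element occurred in 15 compared genes, of which 8 were higher and 0 lower. Their median log2 ratio was 1.01. Among the 9508 compared genes without it, 6.08% were higher. Of the 15, 9 belong to the 35 genes, and the remaining 6 had a median of 0.13. Of those 6, Alg12 was the 1 gene past 2-fold, at 16.9 and 5.60 FPKM, or 3.01-fold. Alg12 encodes a mannosyltransferase that builds the N-glycan precursor in the reticulum. Its start lies on the other strand beside that of Creld2, and both windows hold the same element, at chr15:88819510-88819548. The 5 others, Adcy3, Hnrnpa3, Pan2, Spats2l and Zfp57, had log2 ratios of 0.05, 0.20, 0.07, 0.23 and -0.07.

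The other forms of the response element were rarer in the 35 genes. The second form, searched as ATTGG and, after any 1 base, CCACG, was found in Dnajb11 and Herpud1, 2 of 28 (7.14%) against 0.0444% of all genes in the table, and both were higher. Of the 9 compared genes with it, 3 were higher and 0 lower. The 7 outside the 35 genes had 1 higher and a median log2 ratio of 0.30. The Herpud1 copy lies before its start and shows the shorter arrangement, with a single spacer base between the fixed letters.
Herpud1, chr8:94386367-94386397, plus strand: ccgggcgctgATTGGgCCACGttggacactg
The XBP1-type element, searched as TGACGTGG, was found in 3 of 28, Sec24d, Txndc5 and Txndc11 (10.7%, against 0.714% of all genes). None of the 3 passed 2-fold, with log2 ratios of 0.50, 0.53 and 0.56. Of the 102 compared genes with that element, 4 were higher and 5 lower, while 6.18% of the compared genes without it were higher.

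**Figure D3:**
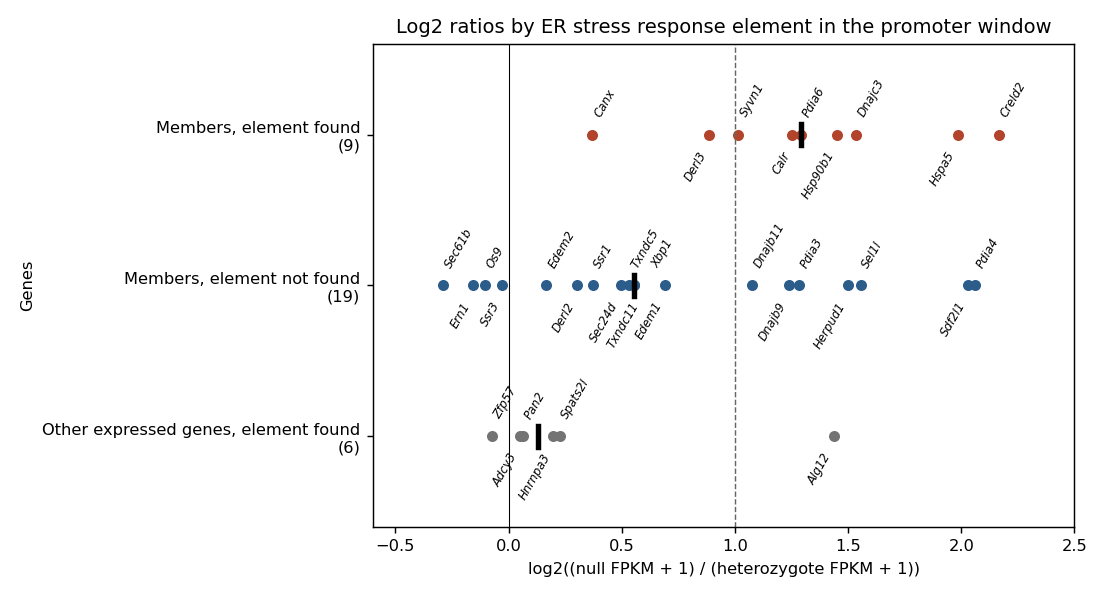
Log2((null FPKM + 1)/(heterozygote FPKM + 1)) of the 9 listed genes whose promoter window holds the ER stress response element, the 19 listed genes in which it was not found, and the 6 other compared genes that hold it (points, named), with medians as bars and a dashed line at 2-fold. The medians are 1.29, 0.56 and 0.13, and Alg12 is the single gene of the last row past the line.

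The rest of the pathway was described from 8 further lists, which held 170 genes of the reticulum and its stress responses. Of these, 166 were compared, 14 (8.43%) were higher, 1 was lower and 151 lay within 2-fold, with a median log2 ratio of 0.18. The pooled share of higher genes was near the 6.84% of all compared genes, so the genes named from these lists are single values. The highest share of a single list, 31.25%, was that of the PERK and ATF4 arm described below. Of 19 other isomerases and oxidases, 2 were higher: Ero1lb, encoding an oxidase that recharges the isomerases (10.5 and 2.05 FPKM, 5.12-fold), and Txndc16 (12.5 and 3.38, 3.70-fold). P4hb, the archetypal protein disulphide isomerase, stood at 970 and 889, so that Pdia4 RNA was 0.739 of P4hb RNA in null cells and 0.192 in heterozygote cells. Among 21 other translocon, signal peptidase and signal recognition genes none was higher and Srp54a was lower (6.48 and 14.7), a value that is uncertain because its reads can be shared with near-identical copies, and that came within 2-fold with a pseudocount of 5 (log2 ratio -0.78) and with equal sums (-0.99). The 20 N-glycosylation and glucosidase genes all lay within 2-fold, with a median of 0.25. The highest-ranked of 26 other degradation genes was Edem3, the third EDEM gene (20.8 and 8.20, 2.54-fold), and the remaining 25 lay within 2-fold. Edem3 itself came below the mark with a pseudocount of 5 (log2 ratio 0.97) and with chromosome centring (0.84).

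For transport out of the reticulum and for the remaining chaperones, the shares of higher genes, 7.69% and 9.09%, were near that of all compared genes. Of 26 coat and cargo receptor genes, Kdelr3, encoding a receptor that returns lumenal chaperones from the Golgi, was 3.60-fold higher (54.5 and 15.2 FPKM). Mia3, encoding the collagen export receptor TANGO1, was 2.25-fold higher (140 and 62.2) but came below the mark with chromosome centring (log2 ratio 0.75). Of 22 other lumenal calcium-binding proteins and collagen chaperones, Nucb2, encoding a calcium-binding nucleobindin (61.3 and 25.8, 2.38-fold), and the prolyl isomerase gene Fkbp7 (62.9 and 29.5, 2.13-fold) were higher. Fkbp7 lost that call with a pseudocount of 5 (log2 ratio 0.98) and with chromosome centring (0.94). This list had a median of 0.47, and its collagen chaperone Serpinh1, chosen here after its values were seen, stood at 1355 and 990.

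The list of the PERK and ATF4 arm, in which the sensor PERK slows translation and raises the factor ATF4, was uneven. Of the 16 genes listed, 5 were higher (31.25%, against 6.84% of all compared genes) and 11 lay within 2-fold. The median log2 ratio was 0.34. The receptor gene Vldlr was 8.39-fold higher (15.3 and 1.83 FPKM), Atf5 3.88-fold (282 and 72.6) and Ddit3, encoding the stress factor CHOP, 3.49-fold (187 and 53.7). The other 2, named after their values were seen, were Cebpb (144 and 42.6) and Trib3 (28.1 and 8.25). Atf4 itself stood at 231 and 156, and Eif2ak3, which encodes PERK, at 13.3 and 11.4. The activity of PERK was not measured, so the higher genes cannot be assigned to it. Of 16 compared sensor relatives, proteases and regulators, 2 were higher: the membrane-bound transcription factor gene Creb3l1, or OASIS (32.8 and 14.5), and Crebrf (13.5 and 5.87). Both came below the mark with a pseudocount of 5 (log2 ratios 0.95 and 0.76), and Creb3l1 also with chromosome centring (0.99). The median of that list was 0.03 and turned to -0.08 when centred by chromosome.

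The chaperones of other compartments had medians near or below 0. Of 33 cytosolic chaperones none was higher, 29 ratios were below 0, and the median log2 ratio was -0.23. It stayed between -0.28 and -0.15 in every scaling, filter and pseudocount tried. Cryab, encoding a small heat shock protein, was lower, at 111 against 336 FPKM. All 12 mitochondrial chaperones and proteases lay within 2-fold, with a median of 0.11 that came to -0.002 when centred by chromosome. All 14 core proteasome genes were within 2-fold and below 0, with a median of -0.22.

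Ratios between paralogues within a library do not depend on how the libraries were scaled to each other. BiP RNA (Hspa5) was 1.41 times that of its cytosolic counterpart Hspa8 in null cells and 0.273 times in heterozygote cells, on the FPKM scale. Against the mitochondrial counterpart Hspa9 it was 4.71 and 1.35 times. GRP94 RNA (Hsp90b1) was 0.3572 of the cytosolic Hsp90ab1 RNA in null cells and 0.1001 in heterozygote cells.

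**Figure D4:**
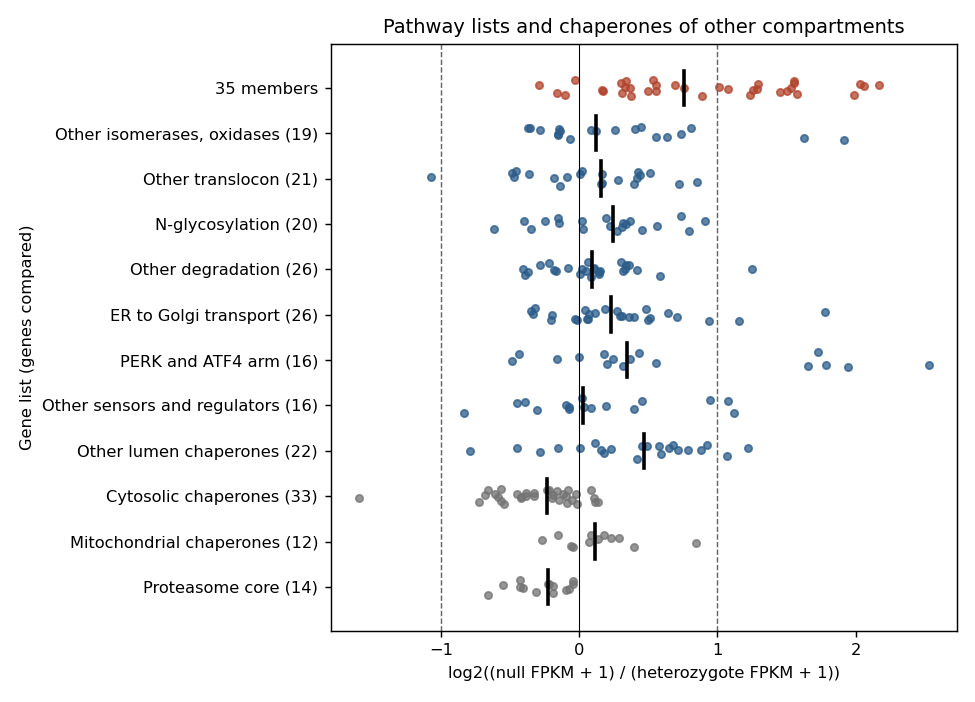
Log2((null FPKM + 1)/(heterozygote FPKM + 1)) of the 35 genes, of 8 further lists of the reticulum and its stress responses, and of 3 lists from other compartments (points are genes, bars are medians, dashed lines mark 2-fold, numbers compared are in brackets). The median of the 35 genes is 0.76, those of the 8 lists lie between 0.03 and 0.47, and the cytosolic chaperone and proteasome medians are -0.23 and -0.22.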

How the data were processed

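The authors deposited 1 table of FPKM with 52636 Ensembl gene IDs and 1 column for each of 2 libraries. Per the submitters' processing notes, Bowtie2 (2.2.3) and the genome build mm8 were used. The counting tool, annotation, strand setting and FPKM denominator are not stated in the sources used here. The column names end in N and P. N was read as null and P as heterozygote, and all directions rest on this reading.

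IDs were matched to GENCODE M21 (GRCm38), which named 52489 of them. The row with the highest mean stood for a repeated symbol. Since the builds differ, M21 gave names, lengths and chromosomes only. Promoters came from RefSeq (GRCm38.p6).

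The measure was log2 of null over heterozygote FPKM after adding a pseudocount of 1, for genes that reached an FPKM of 1 in either library. It understates differences of low genes. Folds use no pseudocount and need both values at 1 or more, except for Derl3. Depth was read from the steps of values under 10 reads in genes with 1 transcript, where 98.6% and 98.5% came out whole within 0.02 reads. For other genes the length used is unknown, so no count test was run. Depth estimation and fold counting were tested on simulated data. Scripts used pandas 2.3.3, numpy 2.4.6 and scipy 1.17.1.

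The 35 genes and all lists were chosen with earlier results of these data known. The text names all 35, up to 3 genes per direction past 2-fold with the highest and lowest ratios in each other list, and Cd248. Of the marker lists only some genes are named. These and any other gene named were chosen after their values were seen. Alternatives covered pseudocount, filter, scaling, chromosome centring and fold threshold. Protein sequences were not used here.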

Additional observations from a re-analysis of the deposited data

How the results depend on the processing

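The direction of the main results held in each setting tried. The number of the 35 genes at least 2-fold higher was 15 to 17 across pseudocounts of 0.1 and 5, other filters, 3 scalings or centrings and chromosome centring, and the number at least 2-fold lower was 0 in each. In all of those settings 15 genes stayed past 2-fold. The count was 19 at a 1.5-fold mark, 4 at a 3-fold mark, and 12 without the 7 genes that share exon bases with another gene of at least 1 FPKM. The median log2 ratio was 0.64 with a pseudocount of 5, 0.84 with equal sums, and 0.76 as reported. Of the genes of the 8 further lists, 34 were higher and 4 lower at a 1.5-fold mark, 8 higher and 0 lower at a 3-fold mark, and 0 were lower with a pseudocount of 5 or equal sums. The shares of all compared genes past the 1.5-fold and 3-fold marks are not given here. The counts at those marks therefore cannot be read against them. With any last base in the ER stress response element, 44 compared genes held it, of which 15 were at least 2-fold higher and 3 lower. Of the 31 outside the 35 genes, 5 were higher, with a median log2 ratio of 0.18. Among the compared genes without it, 6.02% were higher. The cause of these shifts was not tested beyond the settings themselves. Scaling to equal sums moved the median of all genes from 0.03 to 0.11. Of 543 further values for single genes and lists, 462 moved by less than their counting error, by less than 0.1 for a list median, or by at most 1.5 times for a count, and 81 moved further. No paired analysis was possible because each genotype has 1 library, and no replicate could be left out. Derl3 rests on few reads, while the other 34 genes rest on at least 721 in each library. The counting interval still includes an even ratio for Ssr3 and 2-fold for Syvn1.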

Other observations

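Among the most abundant genes of both libraries, chosen by mean FPKM after the values were seen, differences of 2-fold or more went in both directions. Of 101 genes with a mean FPKM of 1000 or more, 4 were higher in null cells and 6 were lower. The 4 were Calr, Hspa5 and Pdia3 of the reticulum and the collagen gene Col1a2 (1832 and 853 FPKM). With the bar at a mean of 100 there were 1327 genes, 17 of them among the 35. Of the 1327, 52 were higher, 10 of them among the 35, and 49 were lower, 0 of them among the 35.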
